A study of Danio rerio with 93 samples.

Results

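Transcription factors of the developing nervous system were followed in whole zebrafish embryos exposed to 5 smoke dyes. The 10 symbols chosen were nhlh2, SOX2, irx5b, ZBTB18, neurog1, neurod1, neurod4, sox3, ascl1a and pax6a, and 9 of them matched 1 identifier each in the count table of 19913 genes. No identifier in the names table carried the symbol pax6a. The gene named PAX6 (ENSDARG00000103379) is described beside the 9 factors and is not counted with them. All 9 factors passed the filter on low counts in all 5 dyes.

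The embryos were wild-type Tropical 5D zebrafish, freed from the chorion, exposed in well plates from early in development and collected as single whole embryos at 48 h post fertilization. Groups were exposed to Disperse Blue 14 (133, 171, 209, 261.5 and 314 µM), Disperse Red 9 (10, 25, 35, 45 and 55 µM), Solvent Red 169 (1 µM, 5 µM, 11.2 µM, 35.6 µM and 50 µM), Solvent Yellow 33 (7.5 µM, 9 µM, 10.5 µM, 12 µM and 13.5 µM) or Solvent Violet 47 (12, 17.5, 23, 31.5 and 40 µM), with 3 embryos at each concentration. Each dye had its own control embryos in 0.64% DMSO, 4 for each dye except Solvent Violet 47, which had 2. There were 93 embryos in 30 groups, 75 exposed and 18 control, and embryos are named by the replicate number in their labels, which skips some numbers. Totals ranged between 9171265 and 48188027 estimated counts per embryo, with a median of 32290121. The shallowest was replicate 3 of 12 µM Solvent Yellow 33, which also had the lowest level among the 93 embryos of nhlh2, neurog1, sox3 and ascl1a.

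These factors act at successive steps of neurogenesis. SOX2 and sox3 are SoxB1 proteins that mark and maintain neural progenitors, and neurog1 and ascl1a are proneural basic helix-loop-helix factors that commit progenitors to a neuronal fate. neurod1, neurod4 and nhlh2 are basic helix-loop-helix factors of later neuronal precursors and differentiating neurons, with neurod1 and neurod4 also active in the retina. irx5b is an Iroquois homeobox factor of neural patterning, ZBTB18 is a zinc finger repressor known in mammals from cortical neurons, and PAX6 is a paired-box factor of eye and brain.

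The factors were measured in CPM, the counts scaled to library size, after normalization of all 93 embryos together. A factor was called when edgeR's quasi-likelihood test, fitted per dye, gave it an adjusted p under 0.05 (Benjamini-Hochberg, over all genes tested) and its fold change exceeded 1.5. The 5 comparisons of a dye share its control embryos and are not independent. The factors were chosen with earlier results of these data known. A count of calls beside the share of all genes is therefore a description and not a test of enrichment. In whole embryos, fewer cells of a type and less RNA per cell cannot be told apart. Over 25 exposed groups and 9 factors, 19 of 225 tests gave a call, 16 higher and 3 lower than the control. The calls fell in 6 of the 25 comparisons, and they came from 3 dyes. All genes called there numbered 666, 1117 and 579 of 17840 at 1, 5 and 50 µM Solvent Red 169. They numbered 1121 and 2681 of 17921 at 31.5 and 40 µM Solvent Violet 47 and 2802 of 17887 at 314 µM Disperse Blue 14. nhlh2, SOX2, irx5b and ZBTB18 were called higher in Solvent Red 169, and irx5b also in Disperse Blue 14. neurod1, neurod4, sox3 and ascl1a were called in Solvent Violet 47.

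**Figure D1:**
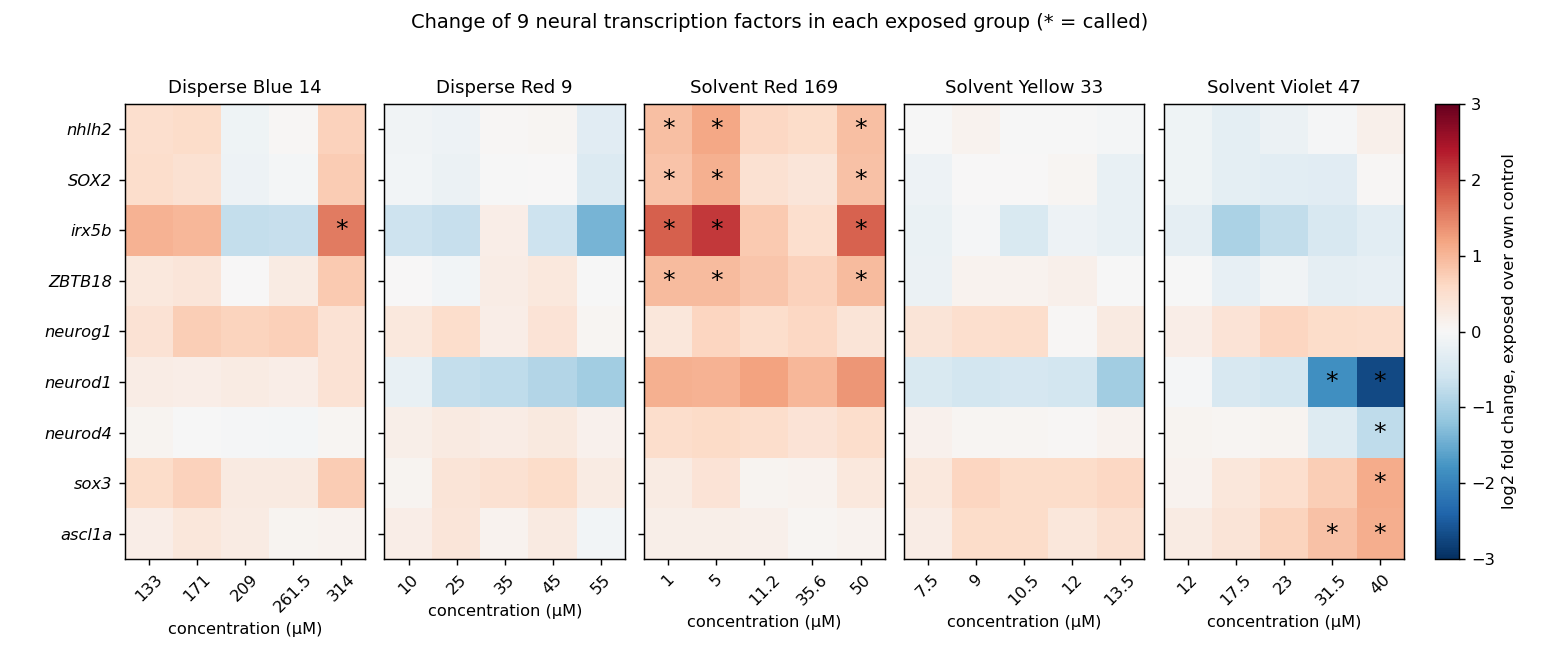
Log2 fold change of each of the 9 factors (down the page) in each of the 25 exposed groups (across, in order of concentration within each dye) relative to the control of its dye, with colours from -3 to 3 and a star for each of the 19 calls. The stars lie at 1, 5 and 50 µM Solvent Red 169, at 31.5 and 40 µM Solvent Violet 47 and, for irx5b, at 314 µM Disperse Blue 14.

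Solvent Red 169 gave the largest number of calls, 12. At 1 µM 4 of the 9 factors were called higher, where 2.80% of 17840 genes tested were. At 5 µM the count was again 4 of 9, with 4.60% of genes called higher, and at 50 µM it was 4 of 9 with 2.51% of genes called higher. The 4 were nhlh2, SOX2, irx5b and ZBTB18 at each of these concentrations. At 11.2 and 35.6 µM edgeR's quasi-likelihood test called 0 of the 9 factors and 0% of genes. The unadjusted p was under 0.05 for 5 and 2 of the 9 factors at these concentrations, beside 4304 and 4209 of 17840 genes. DESeq2 called ZBTB18 and nhlh2 at 11.2 µM and none at 35.6 µM.

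nhlh2 had 77.6, 74.8, 108 and 88.2 CPM in the control embryos, 155, 169 and 172 CPM at 1 µM, 219, 204 and 172 CPM at 5 µM, 134, 142 and 125 CPM at 11.2 µM, 112, 109 and 159 CPM at 35.6 µM and 159, 199 and 144 CPM at 50 µM. Every one of the 15 exposed embryos was above all 4 controls. Its log2 fold change was 0.89 ± 0.16 (SE) at 1 µM with an adjusted p of 0.0273, 1.16 ± 0.16 at 5 µM with an adjusted p of 0.00626 and 0.91 ± 0.16 at 50 µM with an adjusted p of 0.0255 (edgeR's quasi-likelihood test).

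SOX2 had 48.8, 45.3, 57.8 and 42.2 CPM in the controls, 82.3, 95.6 and 89.1 CPM at 1 µM, 114, 102 and 96.7 CPM at 5 µM and 74.6, 124 and 76.1 CPM at 50 µM. The exposed and control embryos did not overlap at these concentrations, and 13 of all 15 exposed embryos were above the controls. The log2 fold change was 0.85 ± 0.19 at 1 µM (adjusted p = 0.0404), 1.07 ± 0.19 at 5 µM (adjusted p = 0.00929) and 0.89 ± 0.19 at 50 µM (adjusted p = 0.0357).

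irx5b, the factor with the largest fold changes of the 4, had 8.30, 9.99, 16.1 and 10.0 CPM in the controls, 23.0, 51.9 and 44.0 CPM at 1 µM, 57.9, 46.3 and 44.6 CPM at 5 µM and 20.3, 65.1 and 30.3 CPM at 50 µM. Its groups did not overlap either, and the embryos at 50 µM ranged widely. The log2 fold change was 1.80 ± 0.34 at 1 µM (adjusted p = 0.0282), 2.13 ± 0.34 at 5 µM (adjusted p = 0.00626) and 1.77 ± 0.34 at 50 µM (adjusted p = 0.0255). At 11.2 µM irx5b had 18.1, 21.7 and 17.3 CPM and at 35.6 µM 13.2, 13.2 and 20.6 CPM, and the log2 fold change was 0.77 (adjusted p = 0.188) at 11.2 µM and 0.50 (adjusted p = 0.337) at 35.6 µM.

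ZBTB18 had 81.5, 72.7, 119 and 96.1 CPM in the controls, 194, 177 and 172 CPM at 1 µM, 193, 180 and 176 CPM at 5 µM and 174, 215 and 157 CPM at 50 µM. All 15 exposed embryos were above the 4 controls. The log2 fold change was 0.94 ± 0.18 at 1 µM (adjusted p = 0.0282), 0.96 ± 0.18 at 5 µM (adjusted p = 0.0116) and 0.95 ± 0.18 at 50 µM (adjusted p = 0.0255), and it was 0.84 at 11.2 µM (adjusted p = 0.164) and 0.70 at 35.6 µM (adjusted p = 0.187). The number of factors whose exposed and control embryos did not overlap was 4 at 1 µM, 7 at 5 µM and 5 at 50 µM, beside 18.9%, 19.9% and 10.2% of all genes. At 11.2 and 35.6 µM, without calls, it was 4 and 2, beside 1672 and 1126 of 17840 genes. These counts used CPM normalized within the dye, not the levels printed here, so a close case can differ.

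**Figure D2:**
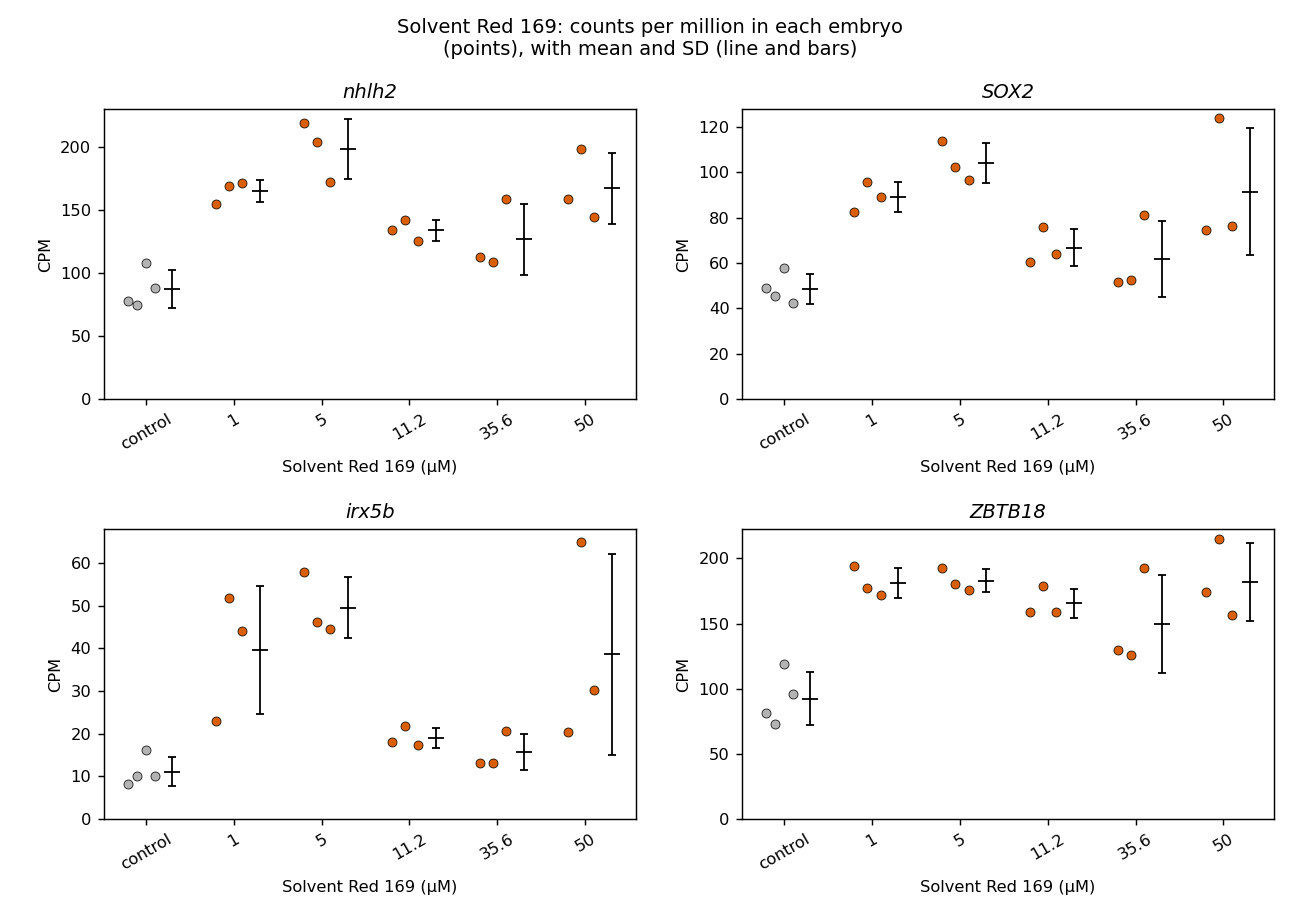
Levels of nhlh2, SOX2, irx5b and ZBTB18 in CPM (vertical axes) in the control and the 1 to 50 µM groups of Solvent Red 169 (horizontal axes); each point is an embryo and the bars are the mean and SD. The exposed embryos at 1, 5 and 50 µM lie above all 4 controls in each panel, and the groups at 11.2 and 35.6 µM lie nearer to the controls.

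No trend over concentration was called. The trend was a line over the rank of the 5 concentrations, not over their values, and gave the controls no weight. For irx5b its change between the lowest and the highest rank was -0.68 ± 0.32 (log2), with an adjusted p of 0.987. In this trend 0 of 9 factors and 0% of genes were called, and DESeq2 called 0. The unadjusted p was under 0.05 for 1 factor, beside 742 of 17840 genes. The 5 µM group was set directly against the 11.2 µM group, the only pair of exposed groups compared. Against the control 4 and 0 factors were called in these groups, so their comparison is a description of a selected pair. irx5b was 1.35 ± 0.37 higher (log2) at 5 µM with an unadjusted p of 0.00175, SOX2 was 0.62 ± 0.20 higher with 0.00775 and nhlh2 was 0.54 ± 0.18 higher with 0.00703. The adjusted p was 1 for each in edgeR's quasi-likelihood test, so 0 of 9 factors and 0% of genes were called, and DESeq2 called 0. In a fit of these groups alone irx5b (adjusted p = 0.00699) and SOX2 (adjusted p = 0.0475) were called.

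The other 5 factors were not called in Solvent Red 169. All 9 factors had a positive log2 fold change at every concentration, with medians over the 9 of 0.85 at 1 µM, 0.96 at 5 µM, 0.53 at 11.2 µM, 0.50 at 35.6 µM and 0.89 at 50 µM, where the medians over all genes lay between -0.07 and -0.03. neurod1 had log2 fold changes of 1.01 to 1.33 with adjusted p of 0.167 to 0.305. Its controls held 13.7, 14.5, 201 and 132 CPM, so that replicates 1 and 2 were far below replicates 3 and 4. neurod4 had 86.1, 110, 200 and 184 CPM in the same controls, and 12 of 15 exposed embryos were above all 4. ascl1a had 20.8 to 29.6 CPM in the exposed embryos and 20.5 to 25.1 CPM in the controls, which overlapped.

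On average, the Solvent Red 169 control embryos had lower levels of nhlh2, SOX2, irx5b and ZBTB18 than the control embryos of the other dyes. In the fit of all 93 embryos, 5 of the 9 factors were called lower in these controls than in the mean of the other 4 control groups, where 10.1% of 18605 genes were called lower. The log2 differences were -1.93 ± 0.47 for irx5b (adjusted p = 0.00164), -1.33 ± 0.36 for neurod1 (adjusted p = 0.00466), -1.09 ± 0.25 for ZBTB18 (adjusted p = 0.00104), -1.02 ± 0.28 for SOX2 (adjusted p = 0.00588) and -0.81 ± 0.30 for nhlh2 (adjusted p = 0.0337). neurod4 had a log2 difference of -0.44 ± 0.12 with an adjusted p of 0.00418, under the fold threshold. Single embryos overlapped. The lowest control of the other dyes had 48.0 CPM of nhlh2, 36.0 CPM of SOX2, 7.13 CPM of irx5b and 68.1 CPM of ZBTB18, below every Solvent Red 169 control. For neurod1, Solvent Red 169 control replicates 3 and 4 lay within the range of the other controls. These control embryos are also those that the exposed groups were compared with. Each control group carried a second library index that no other control group carried. Control group and index therefore cannot be told apart in any comparison between control groups. Among the 30 groups of the series, the Solvent Red 169 controls had the lowest mean of nhlh2 (87.1 ± 15.0 CPM), SOX2 (48.5 ± 6.75 CPM), irx5b (11.1 ± 3.44 CPM) and ZBTB18 (92.3 ± 20.3 CPM; SD, n = 4). The next lowest means were 97.9 ± 21.7 CPM for nhlh2 in 209 µM Disperse Blue 14, 61.8 ± 16.7 CPM for SOX2 and 150 ± 37.4 CPM for ZBTB18 in 35.6 µM Solvent Red 169 and 13.3 ± 3.13 CPM for irx5b in 55 µM Disperse Red 9, and the ranges of mean ± SD overlapped in each case.

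The remaining control groups gave no call among the factors. In edgeR's quasi-likelihood test 0 of 9 were called in the controls of Disperse Blue 14 (0.150% of genes called), Disperse Red 9 (0.322%), Solvent Yellow 33 (0%) and Solvent Violet 47 (0.967%). The unadjusted p was under 0.05 for 0, 3, 2 and 2 factors, beside 1949, 2784, 1451 and 4439 of 18605 genes. DESeq2 called none of the 9 there.

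**Figure D3:**
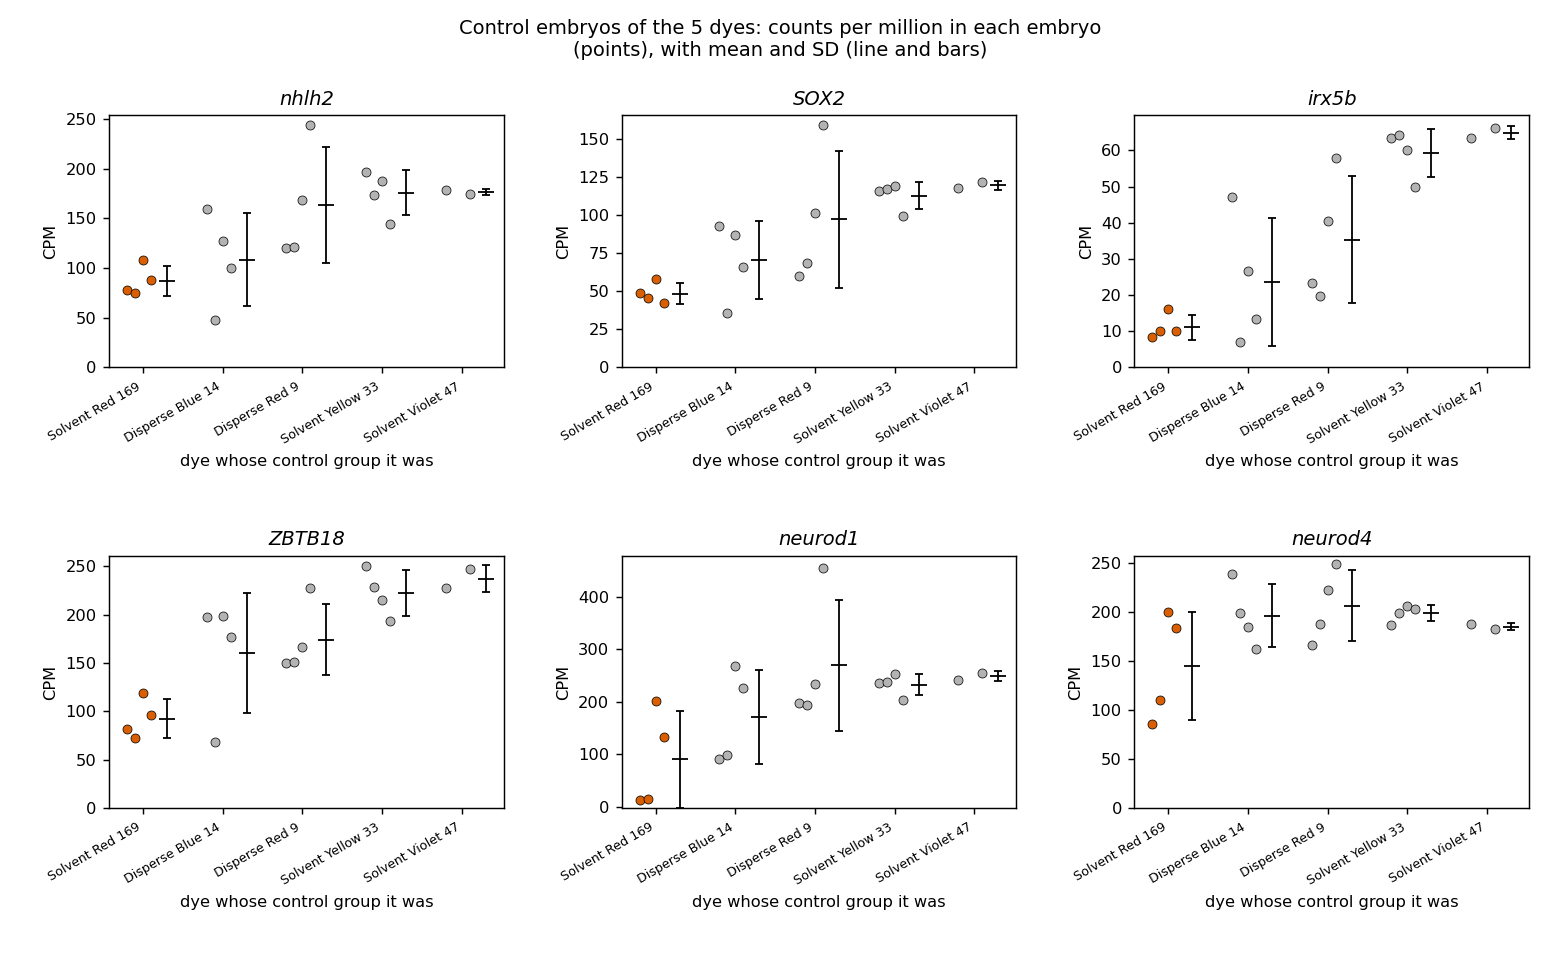
CPM of nhlh2, SOX2, irx5b, ZBTB18, neurod1 and neurod4 (vertical axes) in the control embryos of each dye (horizontal axes, Solvent Red 169 first, in orange); each point is an embryo and the bars are the mean and SD. The Solvent Red 169 controls have the lowest group mean of the 5 control groups in each panel, with overlap between single embryos.

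The exposed Solvent Red 169 embryos were also set beside the control embryos of the other dyes. Most of the exposed embryos carried a second library index that none of these controls carried. nhlh2 ranged between 109 and 219 CPM in the 15 exposed embryos and between 48.0 and 244 CPM, with a median of 164, in the 14 control embryos of the other 4 dyes. irx5b ranged between 13.2 and 65.1 CPM in the exposed embryos and between 7.13 and 66.1 CPM, with a median of 48.4, in those controls. For nhlh2, SOX2, irx5b and ZBTB18 all 15 exposed embryos lay within the range of the other controls, and their median was below that of those controls. neurog1 had a median of 40.3 CPM in the exposed embryos and 22.3 CPM in those controls, and ascl1a one of 26.0 and 16.7 CPM, with all 15 exposed embryos again within the range. With all 18 control embryos as 1 control group, 0 of 9 factors were called at any concentration of Solvent Red 169, and at 5 µM the log2 fold changes became 0.52 for nhlh2 (adjusted p = 0.833), 0.27 for SOX2 (adjusted p = 0.86), 0.46 for irx5b (adjusted p = 0.853) and 0.10 for ZBTB18 (adjusted p = 0.944).

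Single control embryos decided the count as well. Calls over all genes were not kept for any fit with an embryo left out, so no share of genes stands beside these counts. Without control replicate 3 the calls in Solvent Red 169 numbered 29, and they then included neurod1 and neurod4 at all 5 concentrations. Without control replicate 1 or without control replicate 2 they numbered 4, which were the calls at 5 µM. The count was 7 without replicate 2 at 1 µM, 7 without replicate 4 at 1 µM and 6 without replicate 1 at 5 µM. Without replicate 3 at 50 µM it was 8, with all 4 calls at 50 µM lost (adjusted p = 0.188 for each) and irx5b at a log2 fold change of 1.16 there. Against the other controls, 3 factors were called without control replicate 1 and 2 without control replicate 2.

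The library index moved with the groups. All 4 Solvent Red 169 controls carried a second index that 1 of the 15 exposed embryos shared, replicate 1 at 1 µM. This embryo held 155 CPM of nhlh2, 82.3 CPM of SOX2, 23.0 CPM of irx5b and 194 CPM of ZBTB18, each above all 4 controls. In its group it was the lowest in nhlh2, SOX2 and irx5b (51.9 and 44.0 CPM of irx5b in the others) and the highest in ZBTB18. The embryos at 50 µM were split between indexes that no control of this dye carried. Exposure and index largely cannot be told apart here. With the second index as a term, a fit added after seeing the data, 0 factors were called, nhlh2 at 5 µM had a log2 fold change of 1.05 (adjusted p = 0.338) and irx5b at 50 µM one of -0.18 (adjusted p = 0.859).

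Other neural genes moved in part of these comparisons. At 5 µM Solvent Red 169, 6 of 31 neural progenitor and Notch genes were higher and 1 was lower, 4 of 25 proneural factors and Delta ligands were higher, 6 of 43 Iroquois and regional homeobox factors were higher and 1 of 27 differentiated neuron genes was higher, beside 4.60% of all genes higher and 1.66% lower. The Solvent Red 169 controls, against the other controls, had 12 of 27 differentiated neuron genes, 12 of 43 Iroquois and regional factors, 9 of 31 progenitor and Notch genes and 9 of 26 proneural and Delta genes lower, beside 10.1% of all genes. They also had 10 of 18 DNA replication and mitosis genes higher and none lower, beside 9.96% of all genes higher. The summed level of 6 neuron markers was 2051 to 2267 CPM at 5 µM Solvent Red 169 and 796 to 2317 CPM in its controls, with no marker at 0. Among markers of other cell types at 5 µM, 1 of 5 skeletal muscle, 1 of 3 blood and 1 of 4 pigment cell genes were called lower, 1 of 6 heart genes was called higher and 1 of 8 glial genes was called in each direction. The part of cell makeup or embryo stage in these differences was not tested.

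In Disperse Blue 14 irx5b was the factor called, at 314 µM. It had 19.4, 109 and 73.5 CPM in the exposed embryos, against 47.0, 7.13, 26.6 and 13.5 CPM in the controls. Replicate 2 at 314 µM lay inside the control range and the other exposed embryos above it. The log2 fold change was 1.57 ± 0.53 with an adjusted p of 0.0487, and the count was 1 of 9 called higher beside 7.66% of 17887 genes. ZBTB18 had 211, 332 and 264 CPM at 314 µM, against 198, 68.1, 198 and 177 CPM in the controls, and was the 1 factor of 9 without overlap, beside 27.4% of genes. Its log2 fold change was 0.79 ± 0.27 (adjusted p = 0.0523), and SOX2 had 0.77 ± 0.27 (adjusted p = 0.0523), sox3 0.77 ± 0.29 (adjusted p = 0.0664) and nhlh2 0.69 ± 0.30 (adjusted p = 0.0967). Without control replicate 1, which held the highest control level of irx5b, nhlh2, SOX2 and sox3, 11 calls were made in this dye, with neurog1 or sox3 at each lower concentration and 6 factors at 314 µM. The irx5b call was lost without replicate 3 at 314 µM (adjusted p = 0.26), without replicate 4 at 314 µM and without control replicates 2, 3 or 4, and was lost as well with all 18 controls as 1 group (log2 fold change 0.90, adjusted p = 0.192). Its adjusted p was above 0.05 also without any 1 of 11 of the 12 embryos at the lower concentrations, with a fold change that hardly moved.

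Below 314 µM none of the 9 factors was called. The counts were 0 of 9 at 133 µM (0.101% of genes called), 171 µM (0.766%), 209 µM (0.134%) and 261.5 µM (1.07%), with 0 calls by DESeq2. The unadjusted p was under 0.05 for 0, 2, 1 and 1 factors, beside 2402, 3039, 1533 and 3066 of 17887 genes. irx5b had 25.0, 65.6 and 53.5 CPM at 133 µM, 49.3, 55.1 and 34.9 CPM at 171 µM, 11.8, 17.1 and 13.1 CPM at 209 µM and 15.5, 11.2 and 15.7 CPM at 261.5 µM. All 6 embryos at 209 and 261.5 µM were below control replicates 1 and 3, and all 6 at 133 and 171 µM were above control replicates 2 and 4. The trend over concentration gave 0 of 9 calls and 0% of genes, and DESeq2 called 0. Its unadjusted p was under 0.05 for 0 factors, beside 687 of 17887 genes. All 4 controls carried a second library index that 1 embryo at 133 µM shared and no embryo at 314 µM did. Of the embryos at 314 µM, 2 carried an index found in no other group of this dye. Exposure and index largely cannot be told apart. With the library index as a term irx5b at 314 µM had a log2 fold change of -1.48 (adjusted p = 0.992). At 314 µM 8.00% of all genes were called lower. Among markers of other cell types 3 of 4 lens, 3 of 4 pigment cell, 2 of 5 skeletal muscle, 2 of 9 glial, 1 of 3 liver, 1 of 3 blood, 1 of 4 epidermis and 1 of 1 myeloid genes were lower there, 1 of 6 heart genes was higher, and none of 3 endothelium and 4 notochord genes was called. The summed neuron markers were 2274 to 2553 CPM, against 1667 to 2462 CPM in the controls.

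In Solvent Violet 47 at 40 µM, neurod1 and neurod4 were called lower and sox3 and ascl1a were called higher. Of these, neurod1 and ascl1a were also called at 31.5 µM. The other progenitor factor SOX2, the other proneural factor neurog1 and the later factor nhlh2 were not called at either concentration. At 31.5 µM 1 of 9 factors was called lower, beside 4.04% of 17921 genes, and 1 of 9 was called higher, beside 2.22%. At 40 µM 2 of 9 were called lower, beside 8.91% of genes, and 2 of 9 higher, beside 6.05%. The factors without overlap between exposed and control embryos numbered 5 at each of these concentrations, where 46.9% and 44.3% of genes did not overlap with the 2 controls. At 12, 17.5 and 23 µM 0 of 9 factors and 0% of genes were called, with 0 calls by DESeq2. The unadjusted p was under 0.05 for 0, 0 and 2 factors there, beside 214, 1247 and 1647 of 17921 genes.

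neurod1 had 242 and 255 CPM in the controls, 313, 166 and 254 CPM at 12 µM, 232, 167 and 142 CPM at 17.5 µM, 188, 206 and 118 CPM at 23 µM, 108, 68.0 and 37.6 CPM at 31.5 µM and 50.4, 39.5 and 26.9 CPM at 40 µM. The levels at 31.5 and 40 µM lay below all other embryos of this dye. The log2 fold change was -1.83 ± 0.39 at 31.5 µM (adjusted p = 0.0163) and -2.71 ± 0.40 at 40 µM (adjusted p = 0.000793), in edgeR's quasi-likelihood test. The 40 µM group had the lowest neurod1 mean of the 30 groups, 38.9 ± 11.8 CPM (SD, n = 3).

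neurod4 had 187 and 183 CPM in the controls, 206, 173 and 210 CPM at 12 µM, 210, 179 and 200 CPM at 17.5 µM, 178, 221 and 194 CPM at 23 µM, 156, 146 and 132 CPM at 31.5 µM and 118, 115 and 102 CPM at 40 µM. The embryos at 31.5 and 40 µM were below both controls and below all embryos at lower concentrations. The fold change was -0.38 (log2) at 31.5 µM, not called, and -0.76 ± 0.15 at 40 µM (adjusted p = 0.00309).

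sox3 had 104 and 99.8 CPM in the controls, 119, 78.5 and 133 CPM at 12 µM and 143, 135 and 112 CPM at 17.5 µM. It had 112, 181 and 146 CPM at 23 µM, 171, 212 and 140 CPM at 31.5 µM and 141, 322 and 205 CPM at 40 µM. All exposed embryos but replicate 2 at 12 µM were above both controls, and replicate 3 at 40 µM was the highest of the 93 embryos. It was 2.15-fold higher at 40 µM than in the controls, with an SE of 0.32 on the log2 scale (adjusted p = 0.032). The call was lost without replicate 3 at 40 µM (log2 fold change 0.73, adjusted p = 0.114), without replicate 4 at 40 µM (adjusted p = 0.0604) and without either control. ascl1a had 26.1, 29.4 and 27.1 CPM at 31.5 µM and 21.0, 42.0 and 32.8 CPM at 40 µM, against 15.7 and 13.7 CPM in the controls, and 16.3 to 25.9 CPM at the lower concentrations. All 15 exposed embryos were above both controls. Its log2 fold change was 0.88 ± 0.23 at 31.5 µM (adjusted p = 0.0361) and 1.09 ± 0.23 at 40 µM (adjusted p = 0.00576). The Solvent Violet 47 controls had the lowest ascl1a mean of the 30 groups, 14.7 ± 1.37 CPM (SD, n = 2). Of the 16 control embryos of the other dyes, 11 were above both. Those 16 ranged between 11.3 and 50.6 CPM, and all 15 exposed embryos lay within that range. With all 18 controls as 1 group ascl1a was called at 40 µM and not at 31.5 µM. PAX6 had 145, 144 and 97.4 CPM at 31.5 µM and 90.9, 150 and 126 CPM at 40 µM, against 201 and 213 CPM in the controls, a log2 fold change of -0.79 ± 0.23 at 40 µM (adjusted p = 0.0328). PAX6 thus met both thresholds of a call at 40 µM, outside the counts of the 9 factors.

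**Figure D4:**
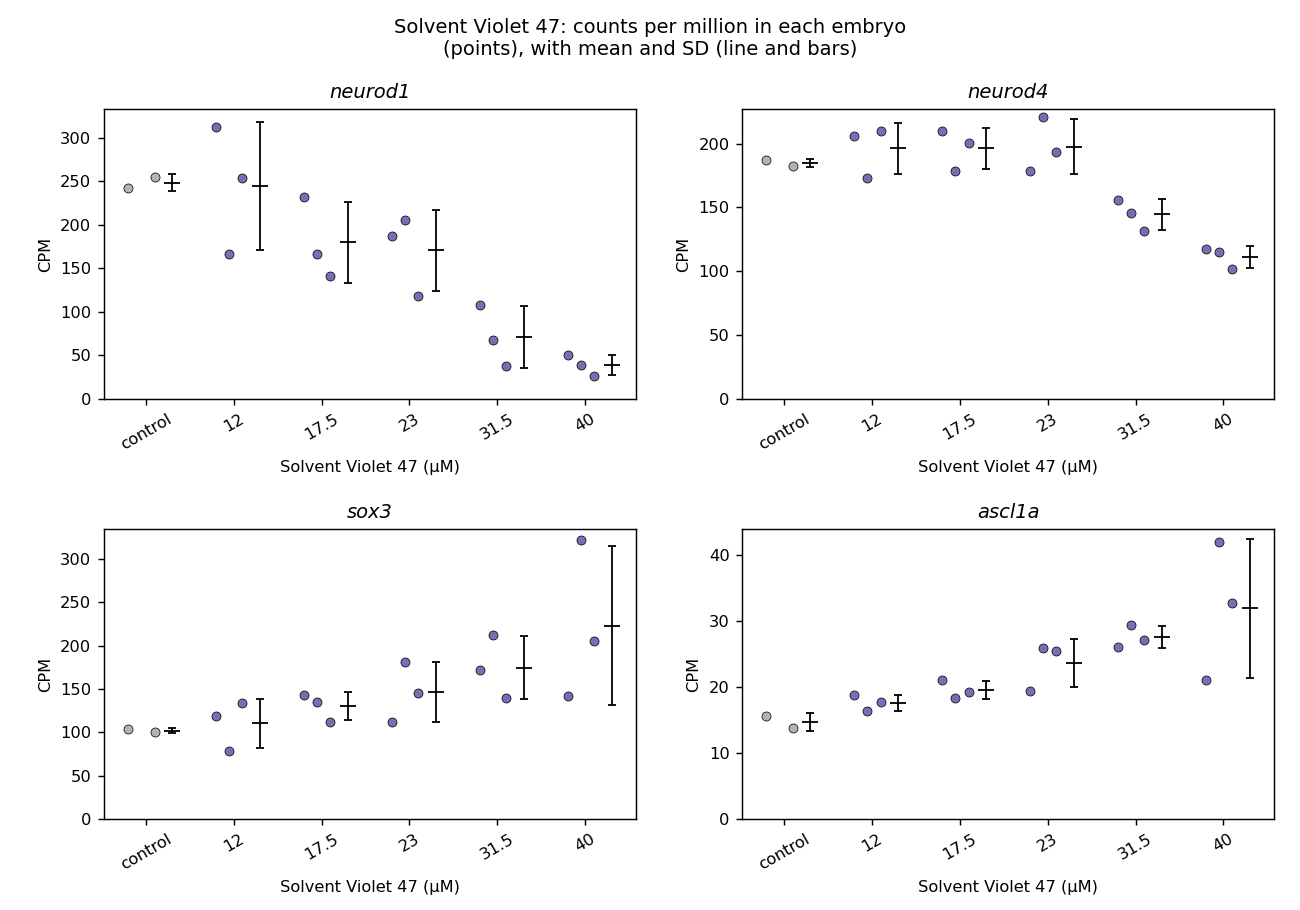
CPM of neurod1, neurod4, sox3 and ascl1a (vertical axes) in the control and the 12 to 40 µM groups of Solvent Violet 47 (horizontal axes); each point is an embryo and the bars are the mean and SD. neurod1 and neurod4 are lowest at 40 µM, and sox3 and ascl1a have their highest means there.

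The same factors followed concentration when the controls were given no weight. In the trend over the rank of the 5 concentrations 2 of 9 factors were called lower, beside 11.8% of genes, and 2 of 9 higher, beside 8.77%. The change between the lowest and the highest concentration was -2.67 ± 0.34 (log2) for neurod1 (adjusted p = 0.000118), -0.84 ± 0.12 for neurod4 (adjusted p = 0.000215), 0.97 ± 0.25 for sox3 (adjusted p = 0.0112) and 0.87 ± 0.18 for ascl1a (adjusted p = 0.00286). These 4 calls were kept when each of the 15 exposed embryos of this dye was left out in turn, and 0 were kept with the library index as a term. PAX6, outside these counts, had a change of -0.84 ± 0.19 (adjusted p = 0.00488), which also met both thresholds. The trend gave 0 of 9 calls in Disperse Red 9, where 0.00560% of genes were called. In Solvent Yellow 33 it gave 0 of 9, where 0% of genes were called, and DESeq2 called 0 in each dye. The unadjusted p was under 0.05 for 0 factors in each, beside 890 of 17869 genes in Disperse Red 9 and 442 of 17577 in Solvent Yellow 33.

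nhlh2, SOX2, irx5b and ZBTB18 were not called in Solvent Violet 47. Their log2 fold changes at 40 µM were 0.15 ± 0.38, 0.03 ± 0.37, -0.31 ± 0.60 and -0.25 ± 0.32. neurog1 had 0.54 ± 0.25 at 40 µM and 0.64 ± 0.25 at 23 µM, not called (adjusted p = 0.479 at 23 µM).

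The calls against the control rested on 2 control embryos and in part on single exposed embryos. Without control replicate 3 the count in Solvent Violet 47 was 3 and without control replicate 4 it was 2, against 6 with both, and the calls at 31.5 µM were lost each time. Both calls at 31.5 µM were also lost without replicate 3 and without replicate 4 of that group, with neurod1 at an adjusted p of 0.056 and 0.0503 and ascl1a at 0.0883 and 0.0762. With all 18 controls as 1 group 5 calls were made, neurod1 at 31.5 µM (log2 fold change -1.47, adjusted p = 0.0461) and neurod1, neurod4, sox3 and ascl1a at 40 µM. All 6 embryos at 31.5 and 40 µM carried a second library index shared with 1 embryo at 23 µM and with no control of this dye. Concentration and index therefore largely cannot be told apart. The 4 Solvent Red 169 controls carried the same index. With the index as a term 0 calls were made, neurod1 at 40 µM had a log2 fold change of -1.93 (adjusted p = 0.323) and its trend was -1.74 (adjusted p = 0.601). Within the index of the upper concentrations neurod1 was at 118 CPM in the 23 µM embryo, 37.6 to 108 CPM at 31.5 µM and 26.9 to 50.4 CPM at 40 µM. Within the other index it was at 142 to 313 CPM in the embryos at 12 to 23 µM. The unexposed Solvent Red 169 controls on the index of the upper concentrations held 13.7, 14.5, 201 and 132 CPM of neurod1. Their replicates 1 and 2 were below every embryo at 40 µM, and replicates 3 and 4 were above every embryo at 31.5 and 40 µM. For neurod4 these controls held 86.1, 110, 200 and 184 CPM, with replicate 1 below every embryo at 40 µM.

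Neural lists held calls in both directions at 40 µM Solvent Violet 47, where 8.91% of all genes were lower and 6.05% higher. Of 27 differentiated neuron genes 11 were lower and 0 higher, with a median log2 fold change of -0.84 where all genes had 0.04. They included ISL1, a homeobox factor of motor and sensory neurons, with 30.2 ± 3.15 CPM at 40 µM and 80.7 ± 0.392 CPM in the controls, and SNAP25, a synaptic vesicle fusion protein, with 13.9 ± 4.62 and 41.0 ± 1.83 CPM (SD, n = 3 and 2). Of 25 proneural factors and Delta ligands 5 were higher and 6 lower. BHLHE23 had a log2 fold change of -4.70 (adjusted p = 0.000876) and NEUROD6, a later neuronal factor, one of -3.33 (adjusted p = 0.00092). Of 43 Iroquois and regional homeobox factors 3 were higher and 12 lower. VSX1, a homeobox factor of retinal bipolar cells, had 6.19 ± 3.16 CPM at 40 µM and 153 ± 8.76 CPM in the controls (adjusted p = 0.000212), and IRX6 had a log2 fold change of -3.30 (adjusted p = 0.000612). Of 31 progenitor and Notch genes 6 were higher and 4 lower, with her12, a Notch target, at a log2 fold change of 0.70 (adjusted p = 0.00652) and MSI2, an RNA-binding protein of progenitors, at -1.45 (adjusted p = 0.00169). Of 18 DNA replication and mitosis genes 5 were higher and 0 lower at 40 µM and at 31.5 µM, and 2.22% of all genes were higher at 31.5 µM, where MCM4 had a log2 fold change of 0.90 (adjusted p = 0.0119) and CCNB1 0.73 (adjusted p = 0.0165). The summed neuron markers were 1092 to 1372 CPM at 40 µM, against 2599 to 2731 CPM in the controls. Among glial genes 1 of 9 was higher and 3 lower, with the myelin gene mbpa at a log2 fold change of -4.04 (adjusted p = 0.00561), and 1 of 4 lens and 0 of 4 pigment cell markers were called.

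Disperse Red 9 and Solvent Yellow 33 gave no call among the factors. In Disperse Red 9 edgeR's quasi-likelihood test called 0 of 9 at 10 and 25 µM (0% of genes at each), 35 µM (0.0951%), 45 µM (1.41%) and 55 µM (0.683%). The unadjusted p was under 0.05 for 0, 0, 1, 1 and 2 factors, beside 867, 1250, 1429, 2731 and 2483 of 17869 genes. DESeq2 called 0 of the factors. neurod1 had the lowest p among them, with 155, 158 and 123 CPM at 45 µM and 124, 136 and 123 CPM at 55 µM, against 197, 194, 233 and 454 CPM in the controls. The exposed embryos at both concentrations lay below all 4 controls, while 1 of 9 factors and 19.4% of genes did not overlap at 45 µM and 2 of 9 and 25.2% at 55 µM. Its log2 fold changes were -0.23, -0.71, -0.77, -0.87 and -1.05 at 10, 25, 35, 45 and 55 µM, with an adjusted p of 0.193 at 55 µM. irx5b had 12.7, 16.6 and 10.5 CPM at 55 µM, against 23.3, 19.8, 40.4 and 57.9 CPM in the controls, a log2 fold change of -1.39 (adjusted p = 0.358). The controls and the embryos at 10 and 25 µM carried the same second library index, and those at 35, 45 and 55 µM carried another. Exposure and index cannot be told apart at 35 µM and above.

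In Solvent Yellow 33 the counts were 0 of 9 at 7.5 µM (0.182% of genes called), 9 µM (0.671%), 10.5 µM (1.08%), 12 µM (1.08%) and 13.5 µM (2.50%). The unadjusted p was under 0.05 for 1 factor, at 13.5 µM, beside 2175 of 17577 genes at that concentration. DESeq2 called 1, neurod1 at 13.5 µM. neurod1 had 131, 102 and 105 CPM there, against 236, 238, 252 and 204 CPM in the controls, a log2 fold change of -1.05 ± 0.31 (adjusted p = 0.0938). Its exposed embryos were all below the controls. sox3 was at 179, 175 and 165 CPM at 13.5 µM, against 116, 108, 114 and 110 CPM in the controls, also without overlap. There 4 of 9 factors and 34.1% of genes did not overlap. The log2 fold change of sox3 was 0.31 to 0.65 over the 5 concentrations. All embryos at 12 and 13.5 µM carried a second library index that 1 embryo at 10.5 µM shared and no control of this dye did. Exposure and index largely cannot be told apart at these upper concentrations.

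Replicate 3 at 12 µM Solvent Yellow 33 bore on these values. It held 25.6 CPM of nhlh2, 7.51 CPM of irx5b and 40.4 CPM of sox3, while the other embryos of its group held 252 and 247, 65.0 and 85.3, and 218 and 233 CPM. Without it 3 calls were made, sox3 at 12 µM with a log2 fold change of 0.98 (adjusted p = 0.00754), neurod1 at 13.5 µM with -1.08 (adjusted p = 0.021) and sox3 at 13.5 µM with 0.60 (adjusted p = 0.0407). Without replicate 1 at 10.5 µM neurod1 at 13.5 µM was the 1 call.

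neurog1 was not called in any of the 25 exposed groups. It ranged between 3.63 and 63.7 CPM over the 93 embryos, and its exposed group means were 24.3 to 49.1 CPM.

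Disperse Red 9, Solvent Red 169 and Disperse Blue 14 are related aminoanthraquinones. Disperse Red 9 carries a methylamino group, Solvent Red 169 an isopropylamino group in its place, and Disperse Blue 14 a pair of methylamino groups. No concentration was shared between them, so their values stand side by side without a test. At 35 µM Disperse Red 9 the log2 fold changes were 0.05 ± 0.42 for nhlh2 and 0.21 ± 0.63 for irx5b, and at 35.6 µM Solvent Red 169 they were 0.54 ± 0.16 and 0.50 ± 0.34. The 133 µM group of Disperse Blue 14 had 0.51 ± 0.30 and 1.05 ± 0.52. Each value is relative to the dye's own controls. Those of Solvent Red 169 had the lowest group means of nhlh2 and irx5b in the series. The median over the factors was 0.21 in this Disperse Red 9 group, 0.50 in Solvent Red 169 and 0.43 in Disperse Blue 14. With the control embryos of all dyes pooled, these medians were 0.28, -0.11 and 0.15. The order of the dyes therefore depended on the controls used.

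In nhlh2, SOX2, irx5b and ZBTB18 embryos of a group differed together, widely in some groups and little in others. irx5b was at 16.9 to 76.1 CPM at 35 µM Disperse Red 9 and at 49.8 to 64.2 CPM in the controls of Solvent Yellow 33. At 12 µM Solvent Yellow 33 it was at 7.51 CPM in the shallowest embryo and at 65.0 and 85.3 CPM in the others. Over the 18 controls irx5b ranged between 7.13 and 66.1 CPM, and over all 93 embryos the highest level was 15.3 times the lowest for irx5b, 33.2 times for neurod1 and 3.30 times for neurod4. Deviations of log2 CPM from the mean of the embryo's group were compared over 93 embryos. The 6 pairs of nhlh2, SOX2, irx5b and ZBTB18 had Pearson correlations of 0.86 to 0.94, and sox3 had 0.83 to 0.91 with them. neurod1 had 0.17 to 0.64 and neurod4 0.43 to 0.64 with the other factors, and the median of all 36 pairs was 0.65. The range within the 4 was 0.77 to 0.97 in Disperse Blue 14, 0.94 to 0.99 in Disperse Red 9, 0.57 to 0.91 in Solvent Red 169, 0.92 to 0.98 in Solvent Yellow 33 and 0.89 to 0.98 in Solvent Violet 47. By Spearman rank correlation over the 93 embryos, neurod1 had 0.29 to 0.69 with the other factors, and the 6 pairs had 0.84 to 0.95. Replicate 3 at 12 µM Solvent Yellow 33, the shallowest embryo, was included, and no correlation was computed without it. The embryos share libraries and normalization across genes, and these correlations are a description.

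**Figure D5:**
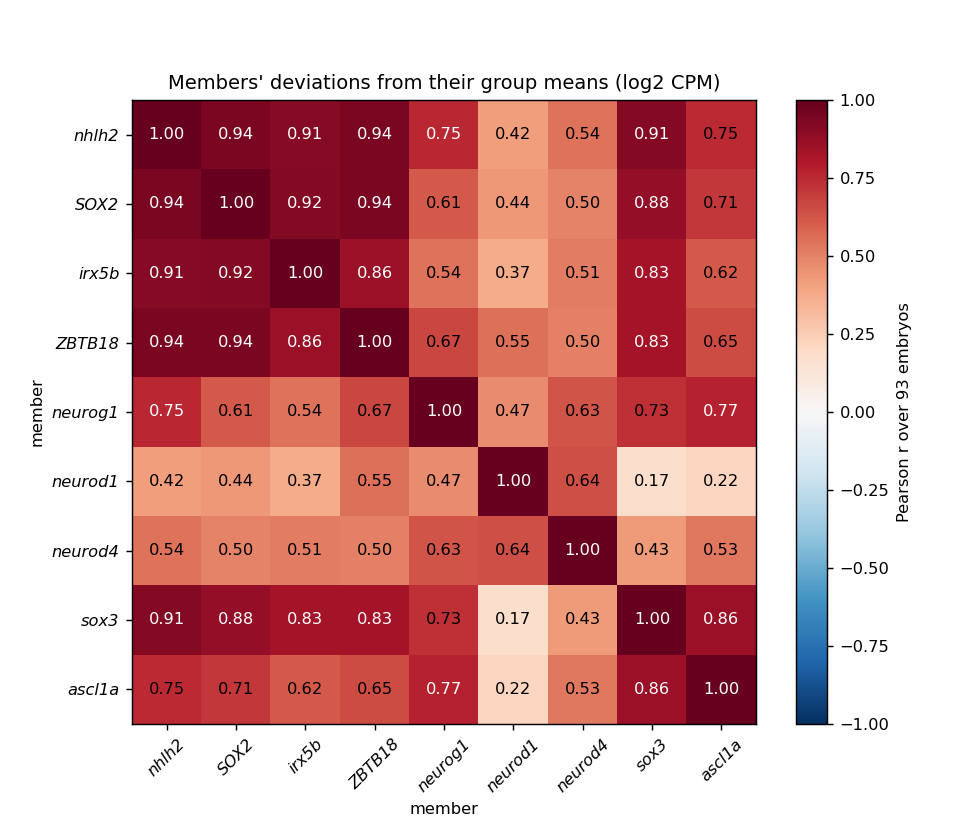
Pearson correlation between each pair of the 9 factors (both axes) over 93 embryos, of log2 CPM as a deviation from the mean of the embryo's group, with the value in each cell. All pairs among nhlh2, SOX2, irx5b and ZBTB18 are at 0.86 and above, and neurod1 has lower values with them. sox3 has 0.83 to 0.91 with these factors and 0.86 with ascl1a.

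By the same measure the genes most like the mean of the 9 factors were phf23b (0.96), SOX11 (0.96), CAB39L (0.95), CDKN1B (0.95) and HEY1 (0.95). Single factors had other neighbours. neurod1 was most like crx (0.96), a homeobox factor of photoreceptors, and foxg1b (0.95), a forkhead factor of the forebrain, and neurod4 was most like atoh7 (0.82), a factor of retinal ganglion cells. ZBTB18 was most like RND3 (0.98), irx5b like TTPAL (0.97) and HOXB9 (0.96), sox3 like msx3 (0.95) and jag1a (0.94), and ascl1a like INSM1 (0.84).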

How the data were processed

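Single whole embryos were measured by poly-A selected RNA-seq. The authors trimmed reads with Trim Galore 0.6.5, quantified them with Salmon 1.1.0 against Ensembl transcripts of GRCz11 and summed them to genes with tximport, and they used edgeR 3.28.1 for their tests. The deposited table holds estimated counts per gene, not normalized, of which 62.2% were whole. The depth of each embryo, 9171265 to 48188027, limits the precision of low genes. The deposited tables of log2 CPM per dye were not used, since they hold the same embryos after normalization.

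Estimated counts were rounded and tested with edgeR 4.0.16 (R 4.3.3; limma 3.58.1) in the earlier form of the quasi-likelihood test, with TMM normalization, filterByExpr and 1 fit per dye over its 6 groups. Group labels came from the sample titles. CPM levels and the comparisons of controls came from 1 fit of 93 embryos. Counts of factors and genes without overlap between exposed and control embryos used CPM from the fit of the dye. The study's methods put each dye on replicate plates, and the sources used here do not say which sequenced embryos shared a plate or clutch, so p-values measure the spread between these embryos. The procedure was tested on simulated data. DESeq2 1.42.0, other filters and normalizations, left-out embryos, the replicate block, all controls pooled and the library index were alternatives. Salmon splits reads shared between paralogues by its own estimate, which was not checked here.

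The members and gene lists were chosen with earlier results of these data known. All 9 members are described. From each list up to 2 called genes with the lowest adjusted p are named, from the comparison with most calls of that list, with a mean of at least 1 CPM and 1 identifier. Genes most like the members are those with the highest correlation of within-group deviations. List symbols were matched by name or by stem to the human-style symbols of the names table. The study's methods state that 1 embryo at 12 µM Solvent Yellow 33 was removed and do not name it, and all 3 embryos in the table were kept.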

Additional observations from a re-analysis of the deposited data

Results flagged for a closer look

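Over the 40 combinations of a factor or PAX6 with a control group of 4 embryos, 2 held an embryo far from the others of its group, and chance alone would single out about 1 in 20. Replicate 2 of the Disperse Blue 14 controls had 68.1 CPM of ZBTB18, where the other 3 had 177 to 198 CPM. Replicate 4 of the Disperse Red 9 controls had 454 CPM of neurod1, where the other 3 had 194 to 233 CPM.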

How the results depend on the processing

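The number of calls among the factors kept its size in Disperse Red 9 (0 under 9 settings). For each control group against the other controls it was 5, and 4 to 6 under 8 settings, which did not include the library index. Elsewhere the number of calls depended on the setting. For the trend over concentration it was 4 under 7 settings and 0 with the library index as a term. In Disperse Blue 14 it was 1, and 0 with no filter on low counts, with a fit of the groups compared alone, with all 18 controls or with the library index, 3 with at least 10 counts in every embryo or with the newer form of the test and 4 with DESeq2. In Solvent Red 169 it was 12, and 1 in a fit of the groups compared alone, 0 with all 18 controls and 0 with the index. In Solvent Yellow 33 it was 0, and 1 with DESeq2 and 3 in a fit of the groups compared alone. In Solvent Violet 47 it was 6, and 3 in a fit of the groups compared alone and 0 with the index. For 5 against 11.2 µM Solvent Red 169 it was 0, and 2 in a fit of these groups alone. With the index, irx5b turned to -1.48 at 314 µM Disperse Blue 14 and -0.18 at 50 µM Solvent Red 169. The index term was chosen after seeing the data and could not be fitted for Disperse Red 9, where each group carried a single index. The cause of these shifts was not tested.

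With 1 embryo left out at a time, the counts ranged over 0 to 11 in Disperse Blue 14, 0 to 0 in Disperse Red 9, 4 to 29 in Solvent Red 169, 0 to 3 in Solvent Yellow 33, 2 to 6 in Solvent Violet 47, 4 to 4 for the trend, 0 to 0 for 5 against 11.2 µM and 2 to 6 for controls against other controls.

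Replicate numbers gave no regular pairing: of 68 pairs of same-numbered embryos 17 had correlated deviations over 0.1, and 0 of 25 groups had all pairs over 0.1. The correlations ran from -0.66 to 0.53. Deviations within such small groups depend on each other, so this check cannot show whether embryos shared a plate or clutch. With the replicate block the counts were 1 in Disperse Blue 14 (sox3 in place of irx5b), 0 in Disperse Red 9, 8 in Solvent Red 169, 0 in Solvent Yellow 33, 6 in Solvent Violet 47, 4 for the trend, 0 for 5 against 11.2 µM and 5 for controls.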
